A study of Mus musculus with 2 samples.

Results

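The 10 immunoglobulin constant region genes of the mouse described here were the kappa light chain gene Igkc, the lambda light chain genes Iglc1, Iglc2 and Iglc3, and the heavy chain genes Ighm, Ighd, Ighg1, Ighg2b, Ighg2c and Igha. They were taken by name from the 32285 genes of the count tables, which hold 427 genes of the immunoglobulin loci. Their transcripts were counted by droplet single-cell RNA sequencing in 2 libraries of retinal pigment epithelium (RPE) and choroid, the vascular layer behind the retina. Mice of the group Tsc1 flox carried the conditional allele Tsc1tm1Djk/J without Cre. Mice of the group Tsc1 RPE KO carried the same allele with the transgene Best-Cre, which the labels call RPE-specific. Mice were 10 weeks old, and each library pooled 1 male and 1 female. The neural retina was removed, the eye cups were digested with collagenase, dispase and trypsin, and live cells were then sorted, per the labels' protocols. With 1 library per genotype there was no replicate, so every difference between genotypes below is a description of 2 libraries, and its interval covers counting error only.

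Each B cell carries a receptor of paired heavy and light chains, and the constant region of the heavy chain sets its isotype. A B cell normally uses either a kappa or a lambda light chain. Naive B cells make Ighm and Ighd by alternative splicing of the same long transcript, and class switching then replaces Ighm with a downstream gene such as Ighg1, Ighg2b or Igha. Plasma cells, the antibody-secreting end stage, devote a large part of their RNA to these genes. Constant regions can also be transcribed from germline promoters, without a joined variable segment. The choroid, unlike the retina, lies outside the inner barrier of the eye and is exposed to blood.

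The libraries gave 1525 and 1849 cells in Tsc1 flox and Tsc1 RPE KO, with medians of 4532 and 4614 UMIs per cell (unique molecular identifiers, 1 per captured RNA molecule). They fell into 12 classes, named after marker genes with the ending "-like". The RPE-like class held only 12 and 45 cells, and Tsc1 had 0 UMIs in it in both libraries, so the deletion could not be checked at this depth. In B cell-like cells, which Best-Cre is not described to reach, Tsc1 was at 24.2 and 29.4 CPM (counts per 1000000 UMIs of the class). Of 3372 distinct barcodes of called cells, 2 occurred in both libraries.

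B cell-like cells numbered 412 of 1525 (27.0%, 95% exact binomial interval 24.8 to 29.3%) in Tsc1 flox and 321 of 1849 (17.4%, 15.7 to 19.2%) in the Tsc1 RPE KO library. The class was clustered without any immunoglobulin gene, and all 14 of its 14 markers passed, with Cd79a, Cd79b and Ms4a1 leading. Its median depths were 3906.5 and 3867 UMIs. The shares of the classes depend on what the digest and the live-cell sort let through.

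Igkc lies on the plus strand of chromosome 6 at chr6:70726435-70726966 (mm10, GENCODE M21 annotation). The lambda genes lie on the minus strand of chromosome 16, Iglc1 at chr16:19061618-19062071, Iglc3 at chr16:19065230-19065681 and Iglc2 at chr16:19198396-19200351. The heavy chain genes share the minus strand of chromosome 12, and Ighm at chr12:113418558-113422730 comes first in the direction of transcription. It is followed by Ighd at chr12:113406604-113416324, Ighg1 at chr12:113325240-113330523, Ighg2b at chr12:113302965-113307933, Ighg2c at chr12:113285325-113288932 and Igha at chr12:113254830-113260236. This order is the one in which switching can move along the locus. The annotation also places the noncoding gene Gm30211 on Igkc, on the same strand, and 2010309G21Rik antisense to Iglc1 and Iglc3.

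Iglc2 and Iglc3 are near-identical copies, and the ends of their coding parts are shown because reads of 3' tags have to be told apart there. Over 317 coding bases they differ at 11 and are 96.5% identical, and their annotated transcripts share an unbroken run of 79 bases. The last 150 coding bases, with the stop codon, are given 5′ to 3′ from the GENCODE M21 transcripts. Capitals mark bases that differ from Iglc2.
Iglc2, chr16:19198536-19198685, minus strand: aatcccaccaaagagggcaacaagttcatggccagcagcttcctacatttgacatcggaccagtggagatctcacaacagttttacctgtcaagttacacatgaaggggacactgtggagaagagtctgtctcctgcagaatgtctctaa
Iglc3, chr16:19065365-19065514, minus strand: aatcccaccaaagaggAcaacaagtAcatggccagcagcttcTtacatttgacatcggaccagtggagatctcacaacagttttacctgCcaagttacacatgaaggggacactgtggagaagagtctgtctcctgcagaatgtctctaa
Iglc1, chr16:19061752-19061901, minus strand: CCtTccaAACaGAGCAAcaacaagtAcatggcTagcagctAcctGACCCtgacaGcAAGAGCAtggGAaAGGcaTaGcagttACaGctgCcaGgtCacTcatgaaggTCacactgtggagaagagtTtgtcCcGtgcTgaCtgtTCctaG
In this stretch Iglc3 differs from Iglc2 at 4 bases and Iglc1 at 52. Reads that fall mostly on shared bases hold few differences between Iglc2 and Iglc3, and how far this blurs the split of their counts was not tested. Bases after the stop codon were not compared 1 by 1. Plasmacytoid dendritic cell-like cells without Cd79a, described below, held 78 and 14 Iglc3 UMIs and 0 of Iglc2. Iglc1 is well separated from both.

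Most UMIs of the members in cells lay in B cell-like cells, and the share was lower for Ighm and, in Tsc1 RPE KO, for Igha. B cell-like cells held 97.0% and 96.3% of the members' UMIs found in cells of Tsc1 flox and of Tsc1 RPE KO. Within these cells the 10 genes made up 1.93% and 1.87% of all UMIs, with a median of 70 and 69 UMIs per cell. Igkc had 99.1% and 98.7% of its cell UMIs there, whereas Ighm had 88.1% and 83.8%. Igha had 5 of 5 and 17 of 25 there. The noncoding gene 2010309G21Rik had only 54 and 26 UMIs in B cell-like cells, against 1567 and 1332 of Iglc3, and none in T or NK cell-like cells.

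Between genotypes the level of the members in B cell-like cells was nearly the same. Their sum was 19277 CPM in Tsc1 flox and 18684 CPM in the Tsc1 RPE KO library, a ratio of 0.969 (95% counting interval 0.953 to 0.986). Igkc stood at 12027 and 11681 CPM (ratio 0.971, 0.951 to 0.992), close to the partner genes of the receptor. Cd79a and Cd79b, the signalling chains that carry surface immunoglobulin, had ratios of 0.992 (0.954 to 1.03) and 0.992 (0.943 to 1.04). Of the lambda genes, Iglc1 was at 946 and 1011 CPM (ratio 1.07, 0.992 to 1.15), Iglc2 at 1480 and 1450 CPM (0.980, 0.923 to 1.04) and Iglc3 at 948 and 1006 CPM (1.06, 0.985 to 1.14). All 3 intervals hold 1. Ighm was at 2862 and 2532 CPM (ratio 0.885, 0.846 to 0.925) and Ighd at 1000.3 and 923 CPM (0.923, 0.857 to 0.994), so both naive isotypes were slightly lower in the Tsc1 RPE KO library.

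Ighg1 and Ighg2b were higher by more than 1.5-fold in Tsc1 RPE KO, through a handful of cells. Ighg1 had 15 UMIs in 1 cell of Tsc1 flox and 38 UMIs in 2 cells of Tsc1 RPE KO, and Ighg2b had 2 UMIs in 1 cell and 52 UMIs in 5 cells. The ratios of their CPM were 3.16 (1.70 to 6.19) and 32.4 (8.54 to 275). These were the only members past 1.5-fold among the 8 with at least 50 UMIs over both libraries, and none was lower by that factor. Among the 5751 genes measured in the class, 2.70% were at least 1.5-fold higher and 4.07% at least 1.5-fold lower, 6.76% in all. The members' median log2 ratio was 0.03 and that of all measured genes -0.03. The 6 switched cells described below held all Ighg1 UMIs found in cells of both libraries. They also held 2 of 2 and 49 of 52 Ighg2b UMIs. Without them, an alternative added after the data were seen, 0 members passed. Both genes then fell below 50 UMIs, so neither could pass by construction.

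The other genes of B cell biology listed for this comparison showed no larger differences where measured. Of the 57 listed, 22 were measured and 0 passed 1.5-fold, with a median log2 ratio of -0.15. The highest ratio among them was that of Mzb1, a chaperone of immunoglobulin assembly, at 306 and 425 CPM (ratio 1.39, 1.23 to 1.57). Plac8, high in marginal zone B cells, was at 329 and 444 CPM (1.35, 1.20 to 1.52). Cr2, the complement receptor of mature B cells, was at 97.4 and 69.4 CPM (0.713, 0.546 to 0.927). The summed kappa variable segments were at 222 and 157 CPM (0.707, 0.594 to 0.840) and the summed heavy chain variable segments at 157 and 182 CPM (1.16, 0.970 to 1.39).

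The share of lambda cells was nearly equal in both libraries. A cell was called kappa or lambda when it held at least 5 light chain constant UMIs and 80% of them were of 1 kind. In Tsc1 flox 250 of 412 cells were kappa and 24 were lambda, and in Tsc1 RPE KO 187 of 319 were kappa and 18 were lambda. Lambda cells were 8.76% (exact binomial interval 5.69 to 12.8%) of the called cells in Tsc1 flox and 8.78% (5.29 to 13.5%) in the Tsc1 RPE KO library. The remaining 138 cells (33.5%) and 114 cells (35.7%) were mixed by this rule. The share of lambda cells depends on it: at 90% purity it was 17.6% and 13.8%, as the mixed share rose to 69.7% and 63.6%.

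**Figure D1:**
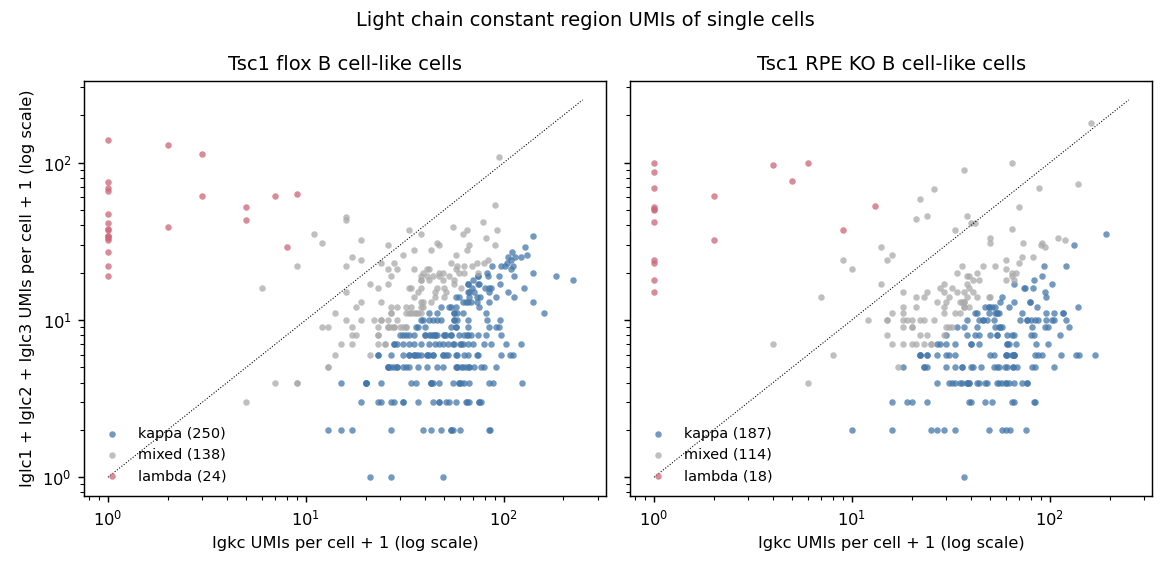
Each point is 1 B cell-like cell, with its Igkc UMIs plus 1 on the x axis and its summed Iglc1, Iglc2 and Iglc3 UMIs plus 1 on the y axis, both on log scales, and the dotted line marks equal counts. Lambda cells (24 and 18) stand at the left edge with few or no Igkc UMIs, whereas kappa cells (250 and 187) carry lambda UMIs in nearly every case and run into the mixed cells (138 and 114).

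Called cells of each kind differed in how much RNA of the other chain they held, within the limit of 20% that the rule sets on both. Lambda cells had a median of 0 Igkc UMIs in both libraries, with at most 8 and 12 in a cell, and kappa cells had medians of 6 and 5 lambda UMIs. Cells with more lambda than Igkc UMIs numbered 37 and 36, of which 24 and 18 met the rule for a lambda call. Only 3 B cell-like cells of each library had no lambda UMI. The lambda UMIs of kappa cells came mainly from Iglc2 and Iglc3. Iglc2 was seen in 86.4% and 85.6% of kappa cells and Iglc3 in 85.2% and 88.2%, against 44.8% and 33.2% for Iglc1.

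The makeup of the lambda RNA differed between the 2 kinds of cell. Iglc1 gave 17.5% and 9.77% of the lambda UMIs in kappa cells, and 56.2% and 59.6% in lambda cells. Of the lambda cells, 16 of 24 and 10 of 18 had Iglc1 as their leading gene, 5 and 3 had Iglc2, and 3 and 5 had Iglc3. The leading gene held at least 10 UMIs in each of these cells, and up to 121. The Iglc2 level of kappa cells, 904 and 802 CPM, was far above that of T or NK cell-like cells of the same libraries, 1.06 and 0.755 CPM (the source of the lambda UMIs of kappa cells was not tested). Mixed cells were as deep as kappa cells, with medians of 3922 and 3872.5 UMIs against 3913 and 3898.

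Variable segments gave a readout that the calls did not use. The lambda segment Iglv1 was at 137 CPM (72.8 to 234) in lambda cells of Tsc1 flox and at 4.94 CPM (1.60 to 11.5) in kappa cells, and at 193 CPM (106 to 324) and 1.31 CPM (0.0331 to 7.28) in Tsc1 RPE KO. Kappa segments together were at 253 and 199 CPM in kappa cells and at 105 and 82.7 CPM in lambda cells. Mixed cells lay between the called ones in Iglv1, at 16.5 CPM (7.56 to 31.4) and 16.7 CPM (7.21 to 32.9). Iglv3 was at 52.6 CPM (17.1 to 123) in lambda and 17.8 CPM in kappa cells of Tsc1 flox, but at 13.8 CPM (0.349 to 76.8) and 13.1 CPM in Tsc1 RPE KO. It had only 5 and 1 UMIs in lambda cells. Iglv2 had 0 UMIs in lambda and kappa cells of both libraries. Iglv1 thus followed the lambda call in both libraries, and Iglv2 and Iglv3 had too few UMIs to tell. The kappa segments, with 10 and 6 UMIs in lambda cells, separated the calls less than Iglv1.

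Of 4461 genes measured outside the immunoglobulin loci, 32 were at least 2-fold higher and 104 at least 2-fold lower in lambda than in kappa cells in both libraries. Ranked by the bound of the pooled interval nearest to 1, the first were Gm30211, Lpcat1 and Ciita on the lower side and Prps2, Vpreb3 and Lpp on the higher side. Vpreb3, a chaperone-like protein of immature B cells, had 75 and 45 UMIs in lambda cells (ratios to kappa cells 2.52 and 2.01), although the share of cells with it was not higher in both libraries. It was seen in 16 of 24 and 9 of 18 lambda cells, against 54.4% and 56.7% of kappa cells. Ciita, the master activator of MHC class II genes, had 5 and 2 UMIs in lambda cells against 190 and 110 in kappa cells (0.280 and 0.192). Gm30211 overlaps Igkc on the same strand and is no independent gene here. These sums rest on 24 and 18 lambda cells, which held 95075 and 72516 UMIs in all, against 1013127 and 765395 in kappa cells. The counts of 32 and 104 genes take no account of counting error, which is large for genes with few UMIs in lambda cells.

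Nearly all B cell-like cells were unswitched. A cell was given an isotype with at least 3 heavy chain UMIs, and called switched when at least 50% of them came from Ighg1, Ighg2b, Ighg2c, Ighg3, Igha or Ighe. In Tsc1 flox 399 of 400 cells were unswitched and in Tsc1 RPE KO 305 of 310. Switched cells were 0.25% (exact interval 0.00633 to 1.39%) and 1.61% (0.526 to 3.72%), and the intervals overlap. Ighm and Ighd occurred together in 364 of 399 unswitched cells (91.2%) and in 281 of 305 (92.1%). Ighd made up 25.9% (24.8 to 27.0%) and 26.7% (25.4 to 28.0%) of the summed Ighm and Ighd UMIs, and these intervals overlap too.

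The 6 switched cells were each dominated by 1 isotype. The cell of Tsc1 flox held 15 Ighg1 and 2 Ighg2b UMIs. Of the 5 in Tsc1 RPE KO, 1 held 32 Ighg1 and 7 Ighg2b UMIs, 1 held 6 Ighg1 UMIs, 2 held 29 and 13 Ighg2b UMIs, and 1 held 10 Igha UMIs. Ighm was at 0 in 5 of the 6 and at 1 UMI in the other, and Ighd was at 0 in all 6. Kappa cells as a whole had medians of 9 and 7 Ighm UMIs. The rule for switched cells limits Ighm and Ighd to a minor share of heavy chain UMIs. Their low counts are therefore description only. The 6 switched cells were deep, with 3589 to 15854 UMIs and a median of 7024, and whether some were undetected doublets was not tested. Igkc was their leading light chain gene, with 32 to 161 UMIs, and the cell with 161 also held 140 Iglc2 UMIs among 12377 in all. Reads of Ighg1 and Ighg2b can be shared, since the IgG genes are close relatives, so the smaller of 2 IgG counts in a cell is uncertain.

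Switched cells were sought only in the B cell-like class, whose markers include Cd79a and Ms4a1, so both genes are description only here. Cd79a counts of the 6 switched cells ran from 9 to 40 UMIs and their Ms4a1 counts from 4 to 35. Sdc1 and Prdm1, the surface marker and regulator of plasma cells, were at 0 in all 6. Jchain, which plasma cells also express, had 1, 3, 4 and 1 UMIs in 4 of the 5 switched cells of Tsc1 RPE KO, out of 10 in all B cell-like cells of that library, and 0 in the switched cell of Tsc1 flox. Mzb1 had 1 to 15 UMIs in the 6 cells. Ighg2c had 0 UMIs over all barcodes of both libraries.

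**Figure D2:**
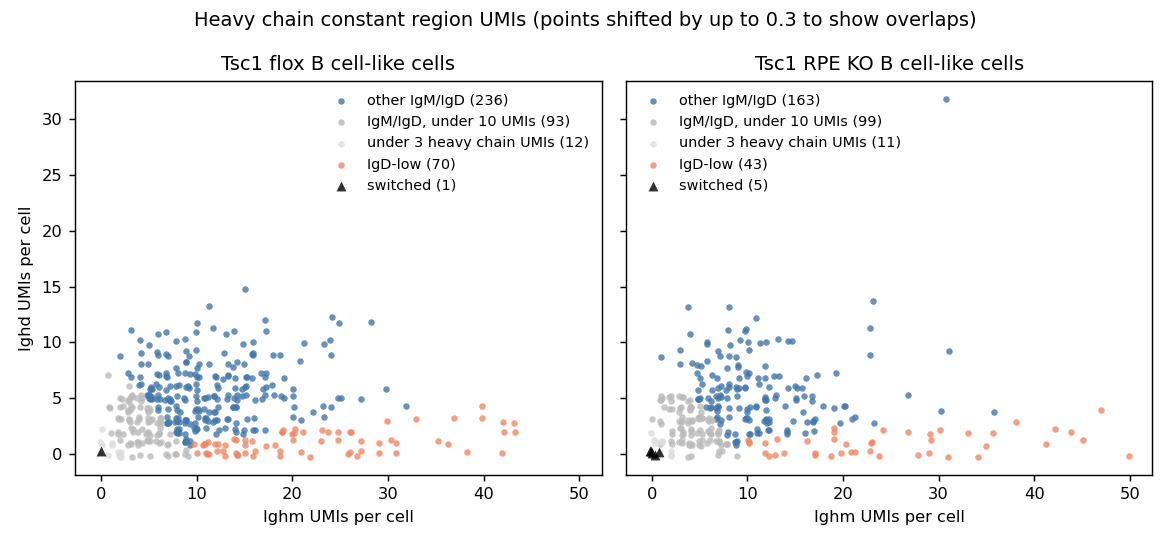
Each point is 1 B cell-like cell, with Ighm UMIs on the x axis and Ighd UMIs on the y axis, moved by up to 0.3 UMIs so that overlapping cells show. The 70 and 43 IgD-low cells stretch along the x axis up to 43 and 50 Ighm UMIs, and the 1 and 5 switched cells (triangles) sit at or next to the origin.

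Some unswitched cells had much Ighm and little Ighd. Among cells with at least 10 Ighm and Ighd UMIs, those with an Ighd share below 10% were called IgD-low, a limit set after the data were seen. They were 70 of 306 cells (22.9%, 18.3 to 28.0%) in Tsc1 flox and 43 of 206 (20.9%, 15.5 to 27.1%) in the Tsc1 RPE KO library. Their Ighm medians were 20 and 23 UMIs against 10 and 10 in the other cells, at median depths of 3906 and 4208 UMIs against 4189 and 3998. A high Ighm count and a low share of Ighd are what the rule chose, and both are description only.

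Genes that the rule did not use separated these cells in the same way in both libraries. The follicular B cell genes Fcer2a and Ccr7, which encode the receptor CD23 and a homing receptor for lymph nodes, were lower in IgD-low cells. Fcer2a was at 79.9 against 284 CPM in Tsc1 flox (ratio 0.281, 0.176 to 0.430) and at 76.0 against 214 CPM in the Tsc1 RPE KO library (0.355, 0.194 to 0.605). Ccr7 had ratios of 0.644 (0.495 to 0.826) and 0.457 (0.310 to 0.655). Not all follicular genes did this: Cxcr5, a homing receptor for follicles, had ratios of 0.925 (0.576 to 1.44) and 1.12 (0.621 to 1.93).

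Of the 5 genes listed for transitional B cells, the recent emigrants from bone marrow, Vpreb3 and Cd24a were higher in IgD-low cells of both libraries and the other 3 had few UMIs. Vpreb3 was at 903 against 271 CPM in Tsc1 flox (ratio 3.33, 2.80 to 3.96) and at 694 against 330 CPM in the Tsc1 RPE KO library (2.11, 1.69 to 2.61), and was seen in 85.7% and 76.7% of the IgD-low cells. Cd24a, the heat-stable antigen, had ratios of 1.95 (1.61 to 2.36) and 1.83 (1.39 to 2.40). Cd93, a defining surface marker of that stage, had only 11 and 3 UMIs in them (6.46, 2.19 to 21.3, and 2.66, 0.390 to 15.7). Myb, a regulator of early lymphocytes, was at ratios of 1.17 (0.276 to 3.87) and 0.546 (0.0599 to 2.41), and the recombinase gene Rag1 had 0 and 3 UMIs in them. Marginal zone and B1 lists gave a divided picture. Plac8 was higher (2.14 and 1.97) and so was the B1 cell regulator Bhlhe41 (3.23 and 4.44, from 11 and 10 UMIs), whereas Cr2 was at ratios of 0.539 (0.303 to 0.903) and 0.540 (0.206 to 1.20). Cd5, the classical B1a marker, had only 0 and 2 UMIs in all B cell-like cells, too few to compare.

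**Figure D3:**
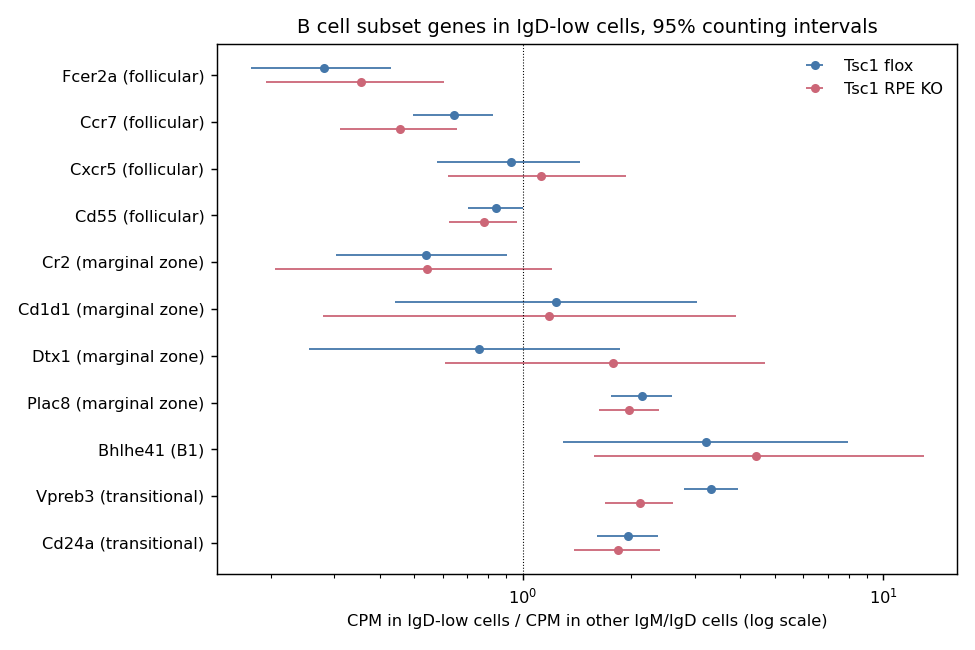
Ratio of CPM in IgD-low cells to CPM in the other IgM and IgD cells (x axis, log scale, 1 dotted) for listed subset genes with enough UMIs, with 95% counting intervals, in Tsc1 flox (blue) and Tsc1 RPE KO (red). Fcer2a and Ccr7 lie below 1 in both libraries and Plac8, Bhlhe41, Vpreb3 and Cd24a above it.

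Of 4900 genes measured outside the immunoglobulin loci, 33 were at least 2-fold higher and 40 at least 2-fold lower in IgD-low cells of both libraries. Both counts take no account of counting error. Wfdc21, S100a6, Akap12 and Egr1 headed those higher, and Tagap and Rflnb those lower. Wfdc21, a small secreted protein, was seen in 20 of 70 IgD-low cells against 6 of 236 others in Tsc1 flox and in 9 of 43 against 6 of 163 in the Tsc1 RPE KO library, with up to 22 UMIs in a cell. Akap12, a scaffold for protein kinase A, was seen in 21 of 70 and 11 of 43 IgD-low cells, against 16 of 236 and 11 of 163 others. S100a6 rested on fewer cells, 5 and 7 (7.14% and 16.3%, against 4.66% and 5.52% of the others). Egr1 rested on 7 and 6 (10.0% and 14.0%, against 7.20% and 4.29%). Tagap, a GTPase-activating protein of lymphocytes, was seen in 5.71% and 9.30% of IgD-low cells against 30.5% and 28.8% of the others.

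A single B cell-like cell, in Tsc1 RPE KO, carried RNA of the surrogate light chain. It held 11 UMIs of Igll1 and 19 of Vpreb1, which encode the chain that stands in before a light chain gene is joined, and 27 of Vpreb3. Dntt, the polymerase that adds bases at joined segments, had 6 UMIs and the recombinase gene Rag2 had 3. The cell had 4 Ighm and 1 Ighd UMIs and no Igkc or lambda UMI among 6181, with 13 UMIs of Cd79a. Igll1 was at 0 in all other cells of both libraries, and Vpreb1 reached at most 1 UMI in any of them. The cell was chosen after its values were seen.

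No antibody-rich cell was found. The search asked for cells with at least 10% of their UMIs from the 10 genes, and 0 of 1525 and 0 of 1849 cells met it. A floor of 3 cells would be shares of 0.197% and 0.162%, which are not exact interval bounds. The highest values were 6.23% in Tsc1 flox, in a cell with 139 Igkc and 29 Ighm UMIs, and 5.65% in Tsc1 RPE KO, in a cell with 74 Iglc1, 63 Igkc and 23 Ighm UMIs. They were also the highest among all barcodes with at least 100 UMIs. The genes listed for secretion were divided in B cell-like cells. Tnfrsf17 had 0 UMIs, Prdm1 had 1 in each library, Derl3 had 6 and 6, Jchain 2 and 10, Fkbp11 13 and 17 and Sdc1 19 and 9. Others were more abundant: Mzb1 had 506 and 563 UMIs, Txndc5 141 and 103, Irf4 96 and 73 and Xbp1 88 and 57. No cell held 2 of Jchain, Sdc1, Prdm1 and Tnfrsf17.

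Igha and Jchain RNA were nevertheless plentiful in Tsc1 RPE KO outside the cells. Jchain encodes the chain that joins IgA and IgM units into polymers. Over all barcodes Igha had 16 UMIs in Tsc1 flox and 454 in the Tsc1 RPE KO library, of which only 5 and 25 lay in called cells. In barcodes of 10 to 100 UMIs, taken as free RNA, Igha was at 4.85 CPM (1.78 to 10.6) and 160 CPM (140 to 183), and Jchain at 1.62 CPM (0.196 to 5.84) and 66.8 CPM (53.7 to 82.1). Their ratios of 33.0 (14.9 to 91.0) and 41.3 (11.1 to 346) ranked second and highest of 6917 genes measured in free RNA.

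The other members did not share this rise in free RNA. Of 7 members measured there, Igha alone was at least 1.5-fold higher, against 13.4% of all genes. Ighm (ratio 0.591), Ighd (0.649), Iglc2 (0.576) and Iglc3 (0.519) were at least 1.5-fold lower, against 5.41% of all genes, and Igkc was at 2045 and 1736 CPM (0.849, 0.802 to 0.899). Cd79a was lower as well (0.750, 0.668 to 0.843), and B cell-like cells were the smaller share of cells in this library, whose part in the lower values was not tested. Per 100 Igkc UMIs, free RNA held 0.237 Igha UMIs in Tsc1 flox and 9.23 in the Tsc1 RPE KO library, and B cell-like cells 0.0252 and 0.110. The Igha of free RNA was thus out of proportion to that of the B cell-like cells of the same library. Under 10 UMIs per barcode Igha reached 363 CPM (316 to 416) in Tsc1 RPE KO, from 207 UMIs spread over 206 barcodes, against 3.60 CPM in Tsc1 flox. Its source was not tested.

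Jchain also appeared in rod-like cells. It had 4 UMIs in 3 of 42 rods of Tsc1 flox and 32 UMIs in 22 of 176 rods (12.5%) of Tsc1 RPE KO, with up to 9 in a cell, against 0 of 510 and 1 of 494 T or NK cell-like cells at higher depth. Igha was at 0 in the rods.

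**Figure D4:**
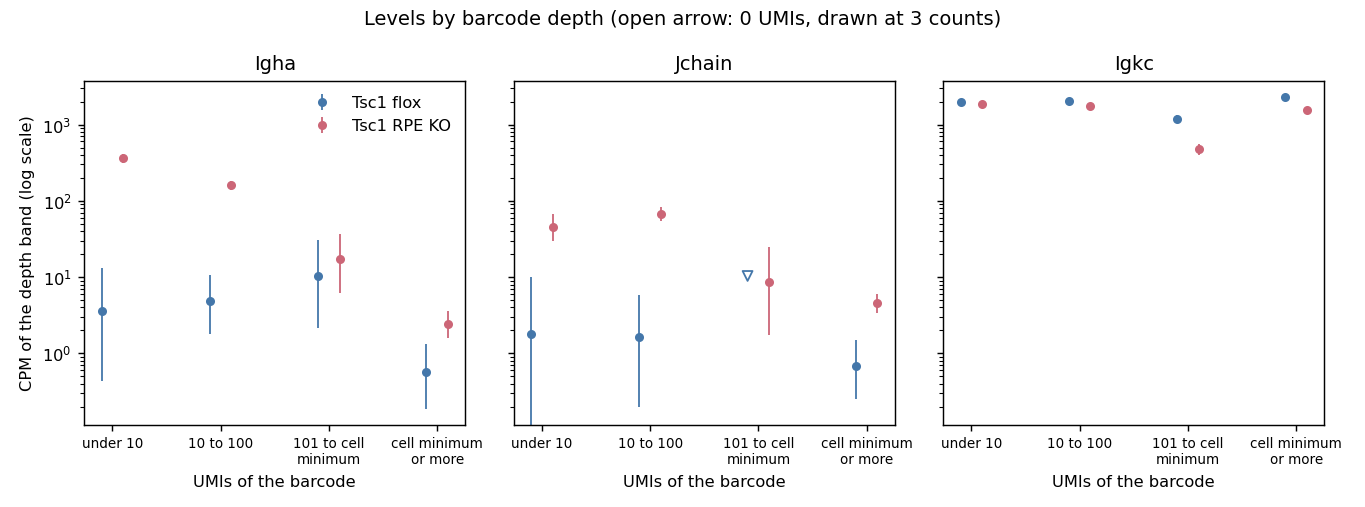
CPM of Igha, Jchain and Igkc (y axis, log scale) in barcodes grouped by their total UMIs (x axis), with 95% Poisson intervals, in Tsc1 flox (blue) and Tsc1 RPE KO (red). Igha and Jchain of Tsc1 RPE KO stand far above Tsc1 flox below 100 UMIs, at 160 and 66.8 CPM for 10 to 100 UMIs, while Igkc is at 2045 and 1736 CPM there, at 1188 and 472 CPM between 100 UMIs and the cell minimum, and at 2323 and 1547 CPM above it.

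Ighm was found widely outside B cells, where Igkc was not. In T or NK cell-like cells Ighm was at 111 CPM (99.1 to 124) in Tsc1 flox and 109 CPM (96.5 to 122) in the Tsc1 RPE KO library, in 184 of 510 cells (36.1%) and 168 of 494 (34.0%). Igkc was at 11.3 and 3.78 CPM there, in 31 (6.08%) and 9 (1.82%) cells. After thinning to 1000 UMIs the shares were 11.2% and 11.3% for Ighm and 1.76% and 0.607% for Igkc. Ighd, which shares the transcript of Ighm in naive B cells, had only 9 and 5 UMIs in T or NK cell-like cells. Ighm remained in 36.3% and 34.0% of those with no Igkc UMI, an alternative added after the data were seen.

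The ratio of Ighm to Igkc differed between these classes and free RNA. Per 100 Igkc UMIs, free RNA held 31.5 and 21.9 Ighm UMIs and B cell-like cells 23.8 and 21.7. T or NK cell-like cells held 984 and 2880, from only 32 and 10 Igkc UMIs, and monocyte-like cells 871 and 310, where 3 barcodes of Tsc1 RPE KO gave 33 of the 62 Igkc UMIs. Macrophage-like cells had 140 and 108 Ighm UMIs beside 14 and 9 of Igkc. Each of these classes had a higher ratio than free RNA, and the source of their Ighm was not tested. Fibroblast-like cells, in contrast, were near free RNA at 37.5 and 9.09, from 9 and 1 Ighm UMIs. Endothelial-like cells had 0 Ighm UMIs in both libraries, and rod-like cells 0 and 2.

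Ighm differed among the T and NK clusters. It was at 150 and 175 CPM in cluster 7, led by Cd8b1 and Cd8a, at 137 and 158 CPM in cluster 4, led by Cd4 and Tcf7, and at 148 and 147 CPM in cluster 11, led by cell cycle genes. Cluster 2, led by the natural killer genes Klra4, Klra8 and Ncr1, had 49.5 CPM (35.4 to 67.4) and 30.6 CPM (18.1 to 48.3). In cluster 9, led by Cxcr6 and Gzmk, it had 33 UMIs in 64 cells (64.0 to 130 CPM) of Tsc1 flox and 16 UMIs in 98 cells (18.6 to 52.9 CPM) of Tsc1 RPE KO. The natural killer cluster was thus below the CD4 and CD8 clusters in both libraries. In macrophage-like cells, the deepest of these with medians of 9745 and 9872.5 UMIs, Ighm was at 135 CPM (114 to 160) and 93.4 CPM (76.6 to 113).

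**Figure D5:**
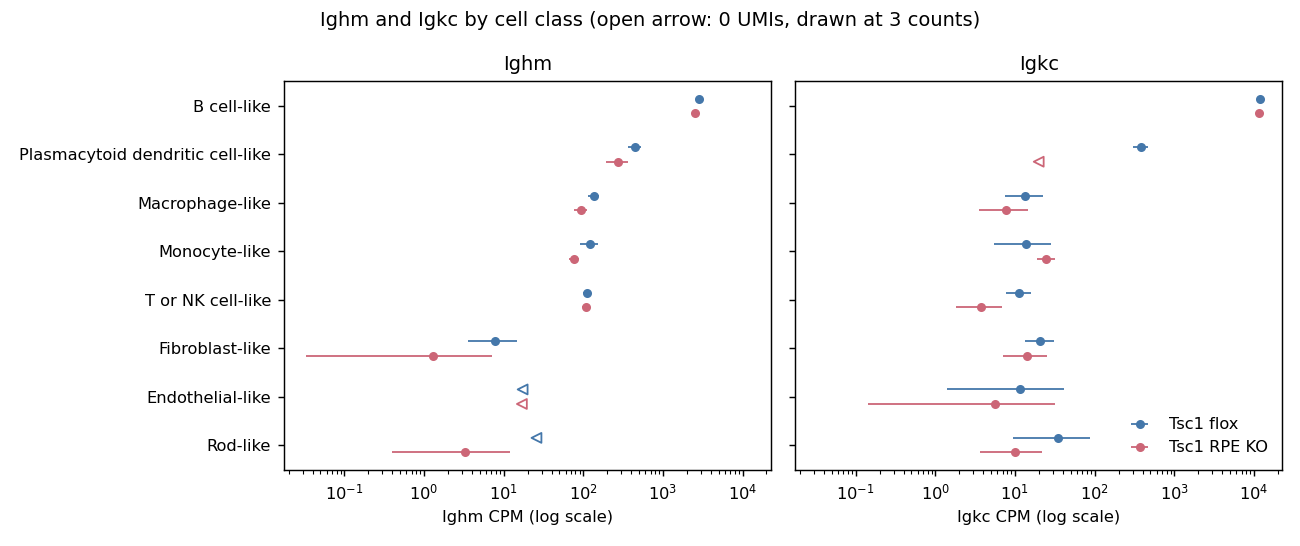
CPM of Ighm (left) and Igkc (right) on a log x axis in 8 cell classes of Tsc1 flox (blue) and Tsc1 RPE KO (red), with 95% Poisson intervals, where an open arrow marks 0 UMIs at the level of 3 counts. Ighm stays near 100 CPM in macrophage-, monocyte- and T or NK cell-like cells, 111 and 109 CPM in the last, while Igkc falls to 11.3 and 3.78 CPM there.

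Plasmacytoid dendritic cell-like cells, the interferon-producing relatives of B cells in gene program, carried Iglc3 without the other lambda genes. In the 17 and 15 such cells with no Cd79a UMI, Iglc3 had 78 UMIs in 4 cells of Tsc1 flox, at 28, 17, 17 and 16 UMIs, and 14 UMIs in 3 cells of Tsc1 RPE KO, at 6, 6 and 2. Iglc1, Iglc2 and Ighd were at 0 in all of them. Igkc had 34 and 0 UMIs, of which 32 lay in a single cell. Ighm was at 274 CPM (207 to 355) in 13 cells and at 272 CPM (195 to 368) in 10 cells. The remaining cells held no Iglc3 at all, and the antisense gene 2010309G21Rik was at 0 in the class.

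The 3 plasmacytoid dendritic cell-like barcodes with Cd79a, all in Tsc1 flox, held 10 to 19 Cd79a UMIs, and 2 of them held 66 and 92 member UMIs. Outside B cell-like cells, 7 barcodes of each library had at least 10 member UMIs. In Tsc1 flox all 7 were plasmacytoid dendritic cell-like. In Tsc1 RPE KO they were 2 of that class, 3 monocyte-like, 1 erythroid-like and 1 RPE-like cell with 70 Igkc UMIs. That RPE-like barcode held 70 of the 72 Igkc UMIs of its class in Tsc1 RPE KO and also 7 Cd79a UMIs. Mast cell-, mural- and endothelial-like cells had at most 2 Igkc UMIs per class and library.

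Across 7 classes in the 2 libraries, the genes whose log level was most like that of Igkc were Cd79a (Pearson's r 0.994 over 14 class levels), Fcer2a, Cdkl1, Crisp3, Gm30211 and Tnfrsf13c. For Ighm they were Tlr1 (0.971), Cd37, Hsh2d, Snx5, Gm13012 and Gpr18. The 14 levels share libraries, depth and the same B cell-like cells, and no p is given.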

How the data were processed

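Members and gene lists were chosen with earlier results of these data known. The deposited values were raw UMI counts per gene and barcode with no barcode filter, per the file headers, 10771118 UMIs in Tsc1 flox and 12574364 in the Tsc1 RPE KO library. Cell Ranger 2.1.1 and build mm10 stand in the submitters' processing notes, Cell Ranger 4 in the matrix header and a 3' v2 kit in the labels.

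Cells had 10% or more of the 99th percentile over the 3000 deepest barcodes (1487.4 and 1373.6 UMIs), 200 genes and at most 20% mitochondrial UMIs. Scrublet (scanpy 1.11.5) removed 7 and 23 doublets. Clustering left out all immunoglobulin genes and used 2000 variable genes, 30 components, 20 neighbours and leidenalg 0.10.2 at resolution 1. A cluster took the class with the largest share of markers passing (10% of cells, 2-fold), with at least 3 passing, a scoring rule set after the clusters were seen, so names are rebuilt ones. Intervals are exact (95%) for counting error only. Genes with 50 UMIs were measured, the ratio script was tested on simulated data, and no test compared genotypes. Named genes were the members, the listed B cell genes, the 6 most different genes of each set of B cells and the 6 genes most like Igkc and Ighm. A few genes of the lists are not reported here.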

Additional observations from a re-analysis of the deposited data

Results flagged for a closer look

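Igha at 160 CPM in barcodes of 10 to 100 UMIs of Tsc1 RPE KO was set apart because these barcodes hold no called cell and the same barcodes of Tsc1 flox were at 4.85 CPM. Jchain, at 66.8 CPM against 1.62 CPM in the same barcodes, was set apart for the same reason. In barcodes under 10 UMIs Igha was at 363 CPM in Tsc1 RPE KO and at 3.60 CPM in Tsc1 flox.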

How the results depend on the processing

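No paired analysis was possible because each genotype was 1 library. Over 20 alternatives, no ratio between libraries whose interval left out 1 changed direction, where it could be computed. Direction was not assessed for shares and counts. Results moved beyond their counting interval, or 1.5 times for a count, in the following cases. With 90% purity the lambda share was 17.6% in Tsc1 flox and 13.8% in the Tsc1 RPE KO library, and the mixed share 69.7% and 63.6%. Thinning to 1000 UMIs lowered the T or NK cell-like shares to 1.76% and 0.607% for Igkc and to 11.2% and 11.3% for Ighm, which fewer UMIs bring about by construction. With at least 2 Igkc UMIs the shares were 0.196% and 0.202%. At a limit of 5% of UMIs, 2 and 1 cells counted as antibody-rich. Without switched cells 0 members passed 1.5-fold. Of single member ratios, Iglc2 was 0.901 and Ighd 0.852 by the median of per-cell levels, and Iglc2 was 0.922 without switched cells. Clustering with immunoglobulin genes, resolution 2, another minimum depth and keeping doublets moved none of these results. Fewer than 25 lambda cells and 6 switched cells limit what can be said of both, and 1 library per genotype leaves differences between mice unmeasured.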
